A study of Mus musculus with 52 samples.

Results

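The collagen genes are the protein-coding genes whose symbol is Col, a number, a and a number, such as Col1a1. They were matched by symbol and gene type, and there are 44 of them among the 39144 genes, 20138 of them protein-coding, that the deposited tables list. Every one of the 44 was listed in testes, brain, eyes, spleen and mouse embryonic fibroblasts (MEFs). Of these genes, 43 were listed in heart, 41 in prostate and 37 in liver.

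The study compared polyadenylated RNA of male mice that lack the long noncoding RNA gene Tug1 with that of wild-type males. In Tug1-/- mice (allele Tug1_tm1.1Vlcg) lacZ took the place of the gene body after the first exon, and the Tug1 promoter was kept, so the deletion removed DNA as well as RNA. Both genotypes were on a mixed C57BL/6J and 129S6 background. The labels mark the Tug1-/- and rescue testes with Neo and LacZ and the wild-type testes as free of Neo, while the study's methods describe removal of the neomycin gene by Cre before colony expansion. If testes of the knockout kept Neo, it and the deletion cannot be told apart there. Eyes, heart, liver, spleen, prostate and MEFs carry no Neo in either genotype. Ages are not given in the labels. The labels hold 4 wild-type, 4 Tug1-/- and 3 rescue testes samples, 3 wild-type and 2 Tug1-/- prostates, and 3 of each genotype for eyes, heart, liver, spleen and MEFs. MEFs were primary fibroblasts from male littermate embryos at an early passage, so they stand for cultured cells and not for an organ. Rescue mice were Tug1-/- males that also carried an inducible Tug1 transgene, tg(Tug1), and the CAGs-rtTA3 driver, and were fed doxycycline. No group here had the driver or the diet alone. The number of brain libraries is not known here. Another 6 testes samples, from F1 hybrids of C57BL/6J and Cast/EiJ, were not analysed here.

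Collagens are extracellular proteins made of chains wound into a long helix. Fibrillar collagens such as types I, III and V form the ropes of skin, bone, tendon and vessel walls. Type II and XI fibrils are those of cartilage and the vitreous, type IV forms the sheet under epithelia and endothelia, and type VI forms beaded filaments around cells. FACIT collagens sit on the surface of fibrils, multiplexins lie near basement membranes and release antiangiogenic fragments, and transmembrane collagens anchor cells to the matrix. Chains are hydroxylated and folded in the endoplasmic reticulum, trimmed outside the cell, and then crosslinked.

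Pairs of type IV collagen genes start head to head, which makes their starts worth seeing. Col4a1 (chromosome 8, 11198423 to 11312826, minus strand) and Col4a2 (chromosome 8, 11312805 to 11449287, plus strand) begin 21 bases apart in GRCm38, and their first exons overlap by 22 bases on opposite strands. The RefSeq promoter windows below are 300 bases long and span each start, 5′ to 3′ on the gene's own strand, with the 78 bases that both windows hold in capitals (GRCm38.p6, chr8:11312777-11313076 for Col4a1 and chr8:11312555-11312854 for Col4a2).
Col4a1: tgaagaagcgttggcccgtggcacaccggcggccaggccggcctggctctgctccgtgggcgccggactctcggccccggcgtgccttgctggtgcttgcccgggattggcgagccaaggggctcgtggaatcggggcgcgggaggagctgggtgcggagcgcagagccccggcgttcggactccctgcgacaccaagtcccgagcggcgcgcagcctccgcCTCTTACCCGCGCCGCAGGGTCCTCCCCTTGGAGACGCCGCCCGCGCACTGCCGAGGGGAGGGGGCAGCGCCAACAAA
Col4a2: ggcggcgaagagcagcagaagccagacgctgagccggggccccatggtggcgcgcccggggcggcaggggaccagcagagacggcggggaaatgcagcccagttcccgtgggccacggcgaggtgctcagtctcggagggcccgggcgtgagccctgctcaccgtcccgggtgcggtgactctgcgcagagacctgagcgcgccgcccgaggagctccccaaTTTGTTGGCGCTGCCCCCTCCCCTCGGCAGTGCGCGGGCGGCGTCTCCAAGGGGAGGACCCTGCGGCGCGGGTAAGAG
The capitals of one window are the reverse complement of those of the other. Neither window holds TATAAA on either strand. The letters GGGCGG, the core of a GC box, occur on 1 or the other strand in 23 of the 38 windows that cover 35 collagen genes, and in 35.6% of all 32817 windows of the same length. CCAAT occurs in 13 of the 38 and in 37.4% of all. A match is a description of letters and not a bound site.

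Col10a1 in MEFs and Col17a1 in eyes had the largest ratios between genotypes among the collagen genes compared there, and their windows are printed for contrast with the pair above. TATAAA is in capitals, searched on both strands. It occurs in 5 of the 38 collagen windows and in 13.6% of all windows. The Col10a1 window lies at chr10:34389731-34390030 on the plus strand, with TATAAA from position -32 relative to the start. The Col17a1 window lies at chr19:47691993-47692292 on the minus strand, with TATAAA from -140 and from -91.
Col10a1: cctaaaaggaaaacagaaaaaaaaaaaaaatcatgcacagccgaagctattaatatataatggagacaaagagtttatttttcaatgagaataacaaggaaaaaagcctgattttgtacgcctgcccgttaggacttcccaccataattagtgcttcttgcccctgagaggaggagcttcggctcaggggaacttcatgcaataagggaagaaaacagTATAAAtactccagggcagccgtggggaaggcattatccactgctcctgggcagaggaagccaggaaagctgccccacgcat
Col17a1: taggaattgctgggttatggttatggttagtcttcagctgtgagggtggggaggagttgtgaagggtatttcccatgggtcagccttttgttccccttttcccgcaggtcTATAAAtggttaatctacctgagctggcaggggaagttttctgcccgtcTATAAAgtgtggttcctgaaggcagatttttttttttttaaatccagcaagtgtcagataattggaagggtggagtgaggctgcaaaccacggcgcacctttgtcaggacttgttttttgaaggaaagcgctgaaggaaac
No data here bear on factors bound at these windows.

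The deposited values are group means of TPM, a transcript abundance that divides reads by gene length and by depth and so allow levels to be set side by side between genes. Single samples were not available here, and the authors' own comparisons were not used. No spread between replicates, no standard deviation and no test therefore stands behind any difference below. Each comparison took the genes whose 2 group means averaged at least 1 TPM, added 0.1 TPM to each mean and gave the log2 of their ratio. A gene is called past the limit where the ratio was at least 1.5-fold, and the share of all genes compared that lay past the same limit in the same direction is the background for each count. The mean normalized read counts summed, in units of 1000000 reads, to between 17.6 (brain) and 48.3 (eyes), and testes had no such column.

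Tug1 itself (chromosome 11, 3639785 to 3649673, minus strand) was at 40.1 TPM in wild-type testes, 0.885 in Tug1-/- testes and 1.605 in rescue testes. In the 7 other sources the wild-type mean ran from 10.1 TPM in liver to 57.5 in eyes, and the Tug1-/- mean was at most 0.237 TPM. Tug1 levels thus matched the genotype labels. Marker genes of the named organ were above the minimum in every organ: all 5 of 5 listed for brain, eye, heart, liver, prostate and spleen, all 5 germ cell genes in testes, and 5 of 6 fibroblast genes in MEFs. Col1a1 and Col23a1 lie on the Tug1 chromosome, with starts 91.3 and 47.6 megabases from its own.

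Wild-type collagen RNA differed far more between sources than between genotypes. MEFs held a summed 17411 TPM of collagen RNA, eyes 1897, and the other organs between 227 in brain and 543 in prostate. In MEFs 15 collagen genes were at or above 100 TPM, and in eyes 6. Col1a1, the main chain of type I collagen, was at 6584 TPM in MEFs, 244 in eyes, 32.0 in heart, 26.8 in spleen, 25.0 in prostate, 7.28 in testes, 5.00 in brain and 1.596 in liver. Its partner Col1a2 was at 2553 TPM in MEFs, 171.5 in eyes and 1.77 in liver. Of the 44 genes, 20 had their highest wild-type mean in MEFs, 10 in eyes and 5 in testes. These are orders of means, and neighbours in them cannot be told apart without the spread.

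**Figure D1:**
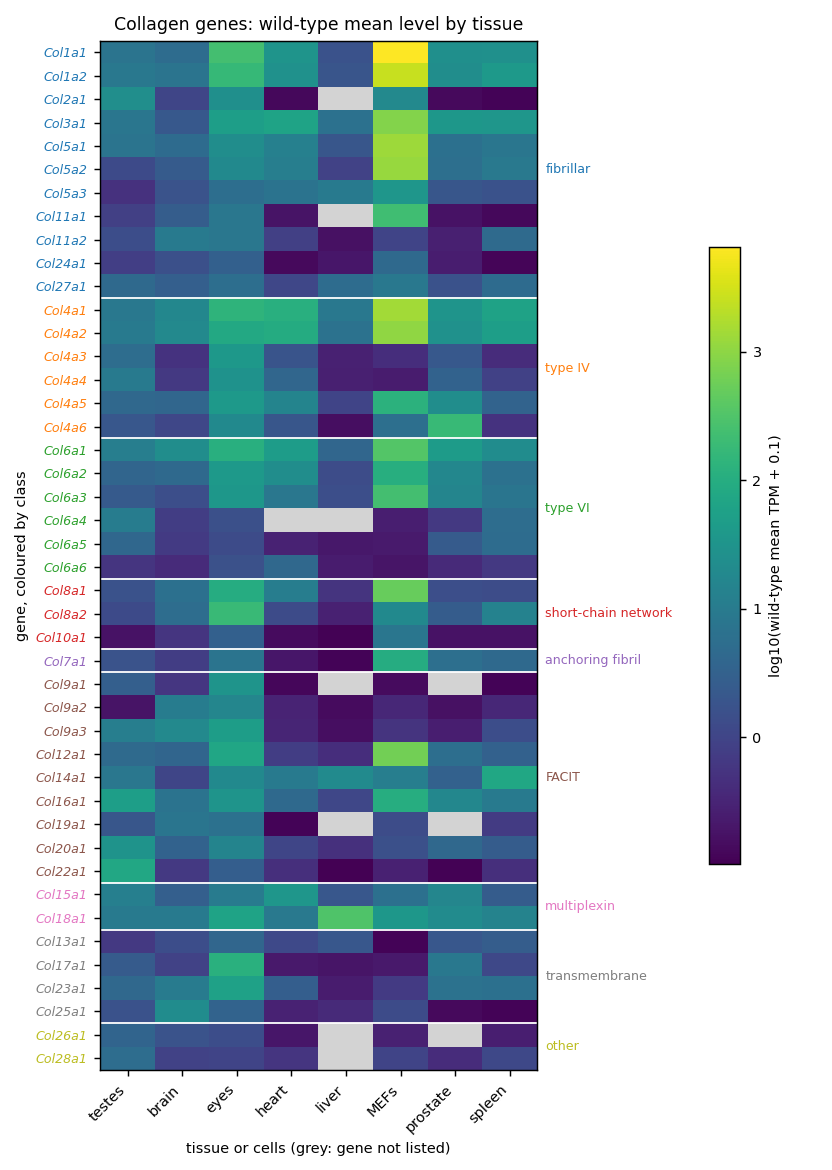
Wild-type mean level of each of the 44 collagen genes (rows, grouped and coloured by class) in 8 sources (columns), as log10 of mean TPM plus 0.1; grey cells are genes not listed. The brightest cells are the type I, IV and V chains in MEFs, with Col1a1 at 6584 TPM.

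The leading collagens differed between sources, though some were among the 3 highest in several, such as Col4a2 in brain, heart and spleen. In testes the highest were FACIT genes, Col22a1 (78.4 TPM), Col16a1 (49.9) and Col20a1 (29.7), and FACIT genes held 51.2% of summed collagen TPM in the wild type and 50.5% in Tug1-/-. Col2a1, the cartilage fibril chain, was next in testes at 24.04 TPM. In brain Col6a1 (23.6 TPM), the transmembrane Col25a1 (22.1), which is found with amyloid plaques, and Col4a2 (18.9) led. In liver Col18a1, the precursor of endostatin, was at 314 TPM and made up 80.3% of collagen TPM, followed by Col14a1 (20.3 TPM) and Col5a3 (9.30).

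The basement membrane chains led in heart, where Col4a1 was at 108.9 TPM, Col4a2 at 92.4 and Col3a1, the fibril chain of distensible tissue, at 63.2. In prostate Col4a6, a chain of epithelial basement membranes, was at 179.7 TPM, and Col6a1 (45.1) and Col3a1 (36.0) followed. In spleen the order was Col14a1 (74.8 TPM), Col4a1 (61.4) and Col4a2 (51.6). In eyes it was Col1a1 (244 TPM), Col8a2 (185), a chain of the corneal endothelial membrane, and Col1a2 (171.5). MEFs had Col1a1 and Col1a2 first and then Col4a1 at 1397 TPM. At 1 TPM or more in all 8 sources were 13 genes: Col1a1, Col1a2, Col3a1, Col4a1, Col4a2, Col5a1, Col6a1, Col6a2, Col6a3, Col15a1, Col16a1, Col18a1 and Col27a1.

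**Figure D2:**
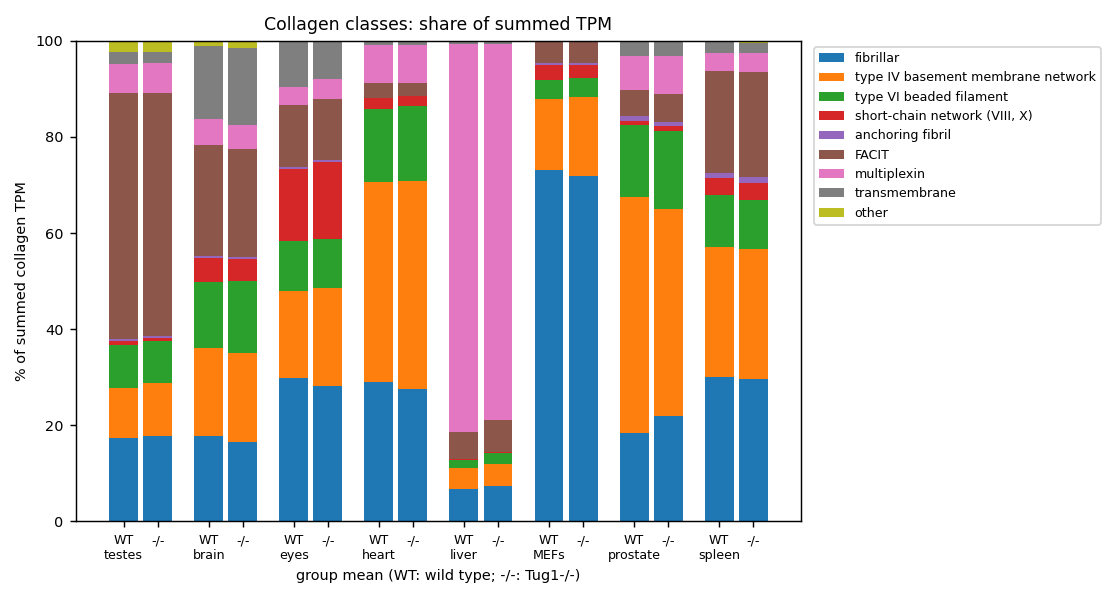
Share of summed collagen TPM held by each of 9 collagen classes in the wild-type (WT) and Tug1-/- mean of 8 sources; each bar sums to 100%. The mix differs between sources, and within a source the paired bars are alike; the widest gap is type IV in prostate, 49.2% in the wild type and 43.2% in Tug1-/-.

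Across the 8 comparisons of Tug1-/- with wild type, 239 pairs of a collagen gene and a source were compared and 13 (5.44%) lay past 1.5-fold, from 12 genes. Over all genes, 6.03% of such pairs lay past it in either direction, so the collagen share was not above the background. Col3a1 was the only one past it in more than 1 source, higher in liver and lower in spleen, and it was inside the limit in both with 1 TPM added to each mean, with ratios centred on all genes and with TPM rescaled over protein-coding genes. All of these came from testes, eyes, liver, MEFs, prostate and spleen, and none from brain or heart. The core chains went both ways across sources. Among the 8, Col1a1 and Col1a2 were each above the wild-type mean in 4 and below it in 4, Col3a1 was above in 5, Col4a1 in 6 and Col4a2 in 5. No test stands behind these signs. In bulk RNA, fewer cells of a type and less RNA per cell cannot be told apart.

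**Figure D3:**
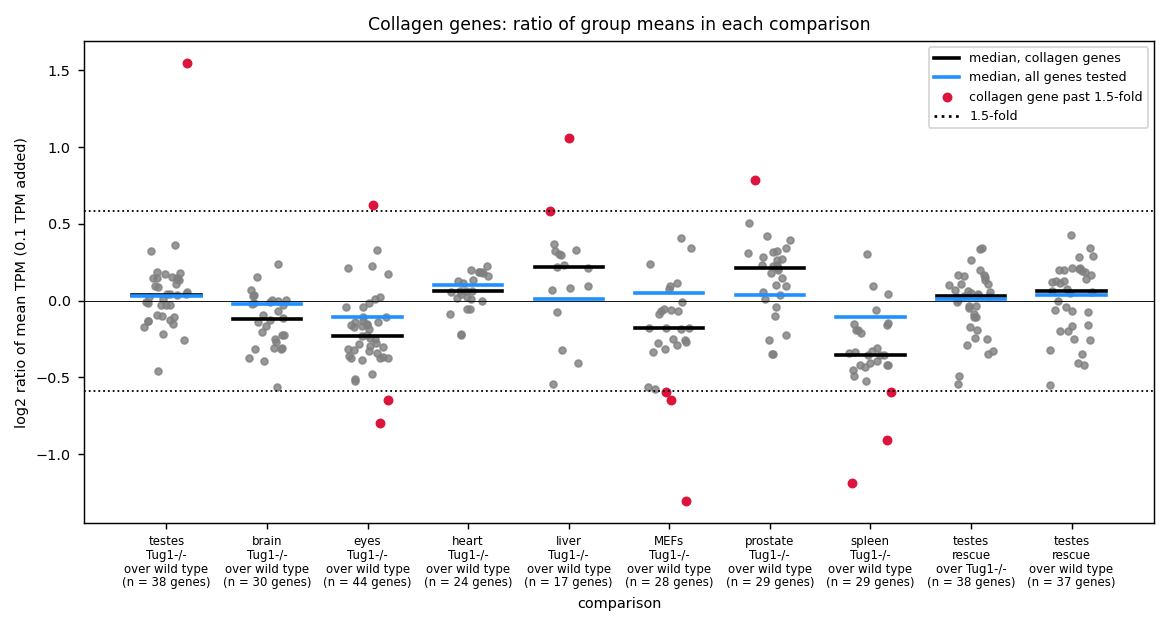
Log2 ratio of group mean TPM (0.1 TPM added) for each collagen gene in 10 comparisons; grey points are single genes, red points lie past 1.5-fold (dotted lines), black bars are the collagen median and blue bars the median of all genes compared. The collagen median is below that of all genes in spleen, eyes, MEFs, brain and heart and above it in liver, prostate and the 3 testes comparisons.

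In testes the collagen genes were at nearly the same means in both genotypes. Of 38 compared, 1 was past the limit on the higher side and 0 on the lower, against 2.34% and 2.9% of all genes. Their median log2 ratio was 0.04, and that of all genes was 0.03. Col6a6, a chain of type VI collagen on chromosome 9 beside Col6a5 and Col6a4, was that gene: it was at 0.475 TPM in the wild type, 1.58 in Tug1-/- and 1.24 in rescue, 2.93-fold higher in Tug1-/- than in the wild type. Its neighbours had other ratios. Col6a4 was at 10.5 TPM and 7.58, a log2 ratio of -0.46, and Col6a5 at 4.05 and 4.30. Col4a1 went from 8.51 TPM to 10.9 and Col5a1 from 7.16 to 8.97, both short of the limit.

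Marker genes of skeletal muscle were higher in Tug1-/- testes, with 5 of 6 past the limit and a sum of 52.5 TPM against 11.9 in the wild type; Acta1, skeletal actin, was at 14.8 TPM against 0.380. In rescue testes the same 6 genes summed to 17.7 TPM and Acta1 was at 0.276, and Col6a6 was at 1.24. Epithelial markers were lower in Tug1-/- testes, 4 of 5 past the limit, with Krt18 at 6.5 TPM against 29.7. The others past it were Krt8, Cldn4 and Cdh1, and, of muscle, Tnnt3, Myh4, Myl1 and Ckm. Past it too were Cd163, Cnn1, Cryaa and Cyp2e1 on the higher side and Hba-a1 on the lower. Of all genes in testes, 62.1% were higher. Macrophage markers were higher in 6 of 6 (median 0.37) and smooth muscle and pericyte markers in 4 of 6 (median 0.42). Fibroblast markers were higher in 3 of 4. Their part in the Col6a6 difference was not tested. Col6a6 reached the minimum in testes only through its Tug1-/- mean, and its read count in testes is not known.

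The rescue was compared with each of the other testes groups, and both comparisons share the rescue samples, as the knockout and rescue comparisons share the wild type. Against Tug1-/-, 0 of 38 collagen genes were past the limit in either direction, where 1.04% of all genes were higher and 2.56% lower. Against the wild type, 0 of 37 were past it, where 2.27% of all genes were higher and 4.33% lower. Col6a6 averaged under 1 TPM in that comparison and was not counted. In both comparisons the largest ratio was that of Col23a1, a transmembrane collagen, at 4.18 TPM in the wild type, 4.14 in Tug1-/- and 2.82 in rescue. The rescue mean lay between the other 2 means for 7 of 38 genes, above both for 19 and below both for 12. The 7 in between were Col5a1 (7.16, 8.97 and 7.85 TPM in wild type, Tug1-/- and rescue), Col6a4 (10.5, 7.58 and 8.19), Col6a1 (11.6, 13.03 and 11.6), Col17a1 (2.41, 2.696 and 2.49), Col7a1, Col25a1 and Col6a6. Among those above both, Col1a1 was at 7.28, 7.86 and 8.47 TPM in wild type, Tug1-/- and rescue, Col1a2 at 8.37, 9.27 and 9.65, Col3a1 at 7.93, 8.98 and 10.1, and Col4a1 at 8.51, 10.9 and 11.5. Col4a6 was below both, at 2.02, 1.89 and 1.74. Of the other lists, 5 muscle and 4 epithelial genes and Dpt were past the limit on the lower side in rescue against Tug1-/-, and Cryaa on the higher. Against the wild type the 4 epithelial genes, Hba-a1, Fmod and Postn were lower, and Actn3, Amh, Rhox5, C1qa, Cd163, Cryaa, Sparc, Ddr1 and Timp1 higher. Without the spread no order of the 3 groups can be read from these.

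**Figure D4:**
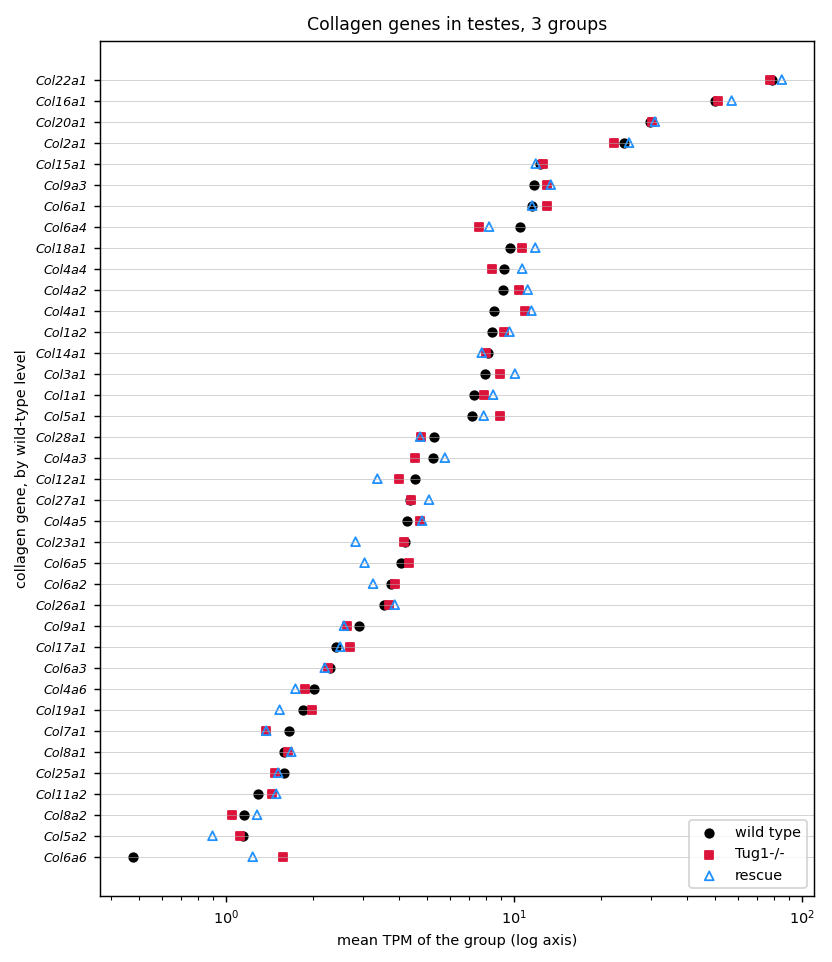
Mean TPM (log axis) of the 38 collagen genes compared in testes, for wild type (black circles), Tug1-/- (red squares) and rescue (open blue triangles), ordered by wild-type level. The 3 means lie close together for most genes; Col6a6 at the bottom has its wild-type mean (0.475) apart from the other 2 (1.58 and 1.24).

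In eyes the collagen genes were mostly lower in Tug1-/-, and so were most genes. Of 44 compared, 37 (84.1%) had a lower mean in Tug1-/-, where 72.4% of all genes did. The collagen median was -0.23 and the median of all genes -0.11, so that relative to all genes the collagens were lower by 0.12. Past the limit were 1 higher and 2 lower, against a background of 2.84% and 3.82%. Col17a1, the transmembrane collagen of the hemidesmosomes that hold basal epithelial cells to their membrane, went from 115.7 TPM to 66.6, 1.74-fold lower, on a mean normalized count of 7139. Col19a1 went from 6.19 to 3.92 TPM. Col28a1, a collagen of nerve sheaths, was higher, at 1.40 TPM against 0.877, on a mean count of 77.3, and reached the minimum only through its Tug1-/- mean. With 1 TPM added to each mean, Col17a1 alone was past the limit.

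The corneal keratin gene Krt12, among the fixed eye markers, was lower too, at 1085 TPM against 1872 (log2 ratio -0.79, that of Col17a1 being -0.80), while the eye list had a median of -0.20 with 1 of 5 higher. The 5 epithelial markers had none past the limit, a median of -0.04 and sums of 294 TPM in Tug1-/- and 313 in the wild type. All 6 skeletal muscle markers were past the limit on the higher side, summing to 8590 TPM against 4853. Fibroblast markers were higher in 4 of 6, with a median of 0.27 and Clec3b past the limit. Macrophage markers were higher in 6 of 6, with Cd163 past it, and endothelial markers in 6 of 7. Actc1, Cyp2e1 and Hba-a1, from the heart, liver and spleen lists, were past it on the higher side too. Their part in the collagen differences was not tested. Mmp3, a protease of matrix proteins, was at 86.3 TPM against 138.6.

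Fibrillar chains of the eye were lower in 9 of 11, where 37 of 44 collagen genes and 72.4% of all genes were. Col1a1 was at 170.3 TPM against 244 in the wild type (-0.52), Col1a2 at 132 against 171.5 (-0.37) and Col2a1, the vitreous and cartilage chain, at 19.5 against 25.3 (-0.38). Col3a1 went the other way, 65.2 TPM against 51.8 (0.33). All 4 cartilage and sclera markers compared were lower, with a median of -0.33. The type IV pair was level, Col4a1 at 137 TPM against 136 and Col4a2 at 79.2 against 81.6. Of type VI, Col6a1 was at 95.2 TPM against 113, Col6a2 at 36.3 against 41.2 and Col6a3 at 29.1 against 36.3. Longer genes were slightly lower in eyes as a whole: of 3 equal groups of protein-coding genes by exonic length, the longest had a median of -0.13 and the shortest group -0.04, and 34 of the 44 collagen genes fell in the longest group. Centred on genes of like length, the collagen median in eyes was -0.13.

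In MEFs the collagen genes past the limit were 3 that are known from cartilage. Of 28 genes compared, 0 were past the limit on the higher and 3 on the lower side, against 3.09% and 3.34% of all genes. Col10a1, the collagen of hypertrophic cartilage, was at 3.15 TPM in Tug1-/- and 7.92 in the wild type, 2.47-fold lower, on a mean count of 178. Col2a1 was at 11.8 TPM against 18.6, and Col11a1, the type XI chain that copolymerizes with type II, at 146 against 221. Col24a1 (-0.57) and Col8a2 (-0.56) lay just inside the limit, and past it with ratios centred on the median of all genes, which made 5. Of the other cartilage chains, Col11a2, Col9a1, Col9a2 and Col9a3 were under the minimum.

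Among fixed cartilage markers in MEFs 3 of 5 reached the minimum, all of them lower in Tug1-/- with a median of -0.44, and Acan, the cartilage proteoglycan, was the 1 past the limit. Of other lists, the fibroblast gene Fap, the pericyte gene Rgs5, Mrc1 of macrophages, Krt8, Nppa, Clu and Rhox5 were past it on the lower side, and Adgre1 and the endothelial Cdh5 on the higher. Fibroblast markers were lower in 3 of 5. The part of these genes in the collagen differences was not tested. The abundant fibroblast collagens differed little: Col1a1 was at 6290 TPM against 6584 and Col1a2 at 2255 against 2553. Col3a1 was at 687 against 828, Col4a1 at 1475 against 1397 and Col4a2 at 1118 against 1034. Type VI chains parted, with Col6a1 at 283 TPM against 338, Col6a2 at 89.3 against 108 and Col6a3 at 303 against 238. In all, 22 of 28 collagen genes (78.6%) were lower in Tug1-/-, while 40.3% of all genes were. The medians were -0.18 and 0.05.

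In liver a pair of fibrillar genes was past the limit, both with higher means in Tug1-/-. Of 17 genes compared, 2 were past the limit on the higher side and 0 on the lower, with 2.97% and 2.25% of all genes. Col5a2, a chain that starts fibrils, was at 1.83 TPM against 0.827, 2.09-fold higher, on a mean count of 226, and reached the minimum only through its Tug1-/- mean. Col3a1 was at 9.30 TPM against 6.17, right at the limit (log2 ratio 0.59), and was inside it with 1 TPM added to each mean or with ratios centred on the median of all genes. Col3a1 and Col5a2 lie tail to tail on chromosome 1, Col3a1 from 45311538 to 45349706 on the plus strand and Col5a2 from 45374321 to 45503282 on the minus strand. Col18a1, the collagen that dominates in liver, was at 298 TPM against 314.

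In all 13 of 17 (76.5%) were higher in Tug1-/- liver, where 52.7% of all genes were. Among those short of the limit, Col1a1 was at 1.99 TPM against 1.596, Col1a2 at 2.23 against 1.77, Col6a1 at 4.81 against 3.90, Col6a2 at 1.44 against 1.22 and Col6a3 at 1.80 against 1.37. Col4a1 was at 9.83 TPM against 8.37, and Col4a2 at 7.03 against 6.63. In the other direction were Col27a1 (3.44 TPM against 5.04), Col5a3 (7.003 against 9.30) and Col15a1 (1.58 against 2.00). The collagen median was 0.22 and that of all genes 0.01, and with a minimum of 0.1 TPM the collagen median was 0.089. All 6 macrophage markers were higher, summing to 188 TPM against 133 with 1 past the limit, and the smooth muscle genes Acta2 (5.11 against 2.74 TPM) and Myh11 (1.82 against 0.959) were past the limit. Myh11 reached the minimum only through its Tug1-/- mean. The macrophage gene past the limit was Adgre1. Of the fibroblast list, which summed to 11.8 TPM against 8.37, 2 genes reached the minimum. Dpt was past the limit on the higher side, as was the epithelial gene Cdh1, and the other fibroblast gene was lower. Their part in the collagen differences was not tested.

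Spleen had the most uniform lean. Of 29 genes compared, 26 (89.7%) were lower in Tug1-/-, where 70.4% of all genes were, and summed collagen TPM was 332 against 434. The collagen median was -0.35 and that of all genes -0.11, a difference of -0.24. Past the limit were 0 higher and 3 lower, the background being 4.99% and 4.37%. Col6a5, a type VI chain, was at 2.14 TPM against 4.99, 2.27-fold lower. Col5a3 was at 0.796 TPM against 1.58, on a mean count of 118, and reached the minimum only through its wild-type mean. Col3a1, the fibril chain of the splenic reticulum, was at 22.9 TPM against 34.5, near the limit. With 1 TPM added to each mean, Col6a5 alone was past it.

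The rest of the spleen set was spread between classes. Col1a1 was at 19.6 TPM against 26.8, Col1a2 at 30.7 against 41.0, Col4a1 at 48.2 against 61.4, Col4a2 at 38.5 against 51.6 and Col14a1 at 58.4 against 74.8. Type VI chains were lower in 5 of 5, where 70.4% of all genes were lower. Among them Col6a1 was at 17.0 TPM against 22.3, Col6a2 at 4.82 against 6.41 and Col6a3 at 5.80 against 7.36. Col18a1 was at 10.6 against 14.2, and Col15a1, its relative of vessel and muscle membranes, at 2.19 against 2.52. Higher were Col28a1, Col8a1 and Col5a1, by at most 0.31.

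Other cell markers differed in spleen as well. Pdgfrb, a receptor of pericytes and reticular cells, was at 24.4 TPM against 37.3, and 5 of 6 smooth muscle and pericyte markers were lower. The hemoglobin gene Hba-a1 was at 6922 TPM against 3614, while the spleen list that holds it was lower in 3 of 5, with a median of -0.31. Liver genes were seen in the wild type, with Alb, albumin, at 16.4 TPM against 0.0843 in Tug1-/-, and Spink1, from the prostate list, in Tug1-/- at 68.8 TPM and listed at 0 in the wild type. Also past the limit were Apoa1, Ttr, Cyp2e1 and Tnnt3 on the lower side and Vwf, Cd163 and Gfap on the higher. Of all genes in spleen, 70.4% were lower. Fibroblast markers were lower in 4 of 5, endothelial markers in 6 of 7 and macrophage markers in 5 of 6. Their part in the collagen differences was not tested.

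In prostate most collagen means were higher in Tug1-/-, a mean of 2 samples. Of 29 genes compared, 1 was past the limit on the higher and 0 on the lower side, against 4.67% and 2.05% of all genes. Col14a1, a FACIT of fibril surfaces, was at 5.42 TPM against 3.11, 1.72-fold higher. In all 23 of 29 (79.3%) were higher, and 59.0% of all genes were. The medians were 0.21 and 0.04. Col1a1 was at 30.5 TPM against 25.0, Col1a2 at 29.5 against 23.3, Col3a1 at 44.6 against 36.0, Col6a1 at 52.6 against 45.1 and Col15a1 at 19.6 against 16.2. Col6a3 was nearly level, at 14.8 TPM against 15.9. Col4a6, the leading chain, went down from 179.7 TPM to 141, while its neighbour Col4a5 went up from 23.1 to 30.9.

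Macrophage markers were higher in Tug1-/- prostate, 4 of 6 past the limit, summing to 145 TPM against 90.3; fibroblast markers were higher in 5 of 5, with 1 past it. Endothelial markers were higher in 6 of 7, with a median of 0.30. Epithelial markers were lower in 5 of 5, none past the limit, summing to 3205 TPM against 3421. Lum, the fibril-binding lumican, was at 23.4 TPM against 12.3. Cyp2e1, a liver and fat gene, was at 62.2 TPM against 8.08. The fibroblast gene past the limit was Clec3b, and those of macrophages were Mrc1, Cd163, C1qa and Adgre1. Clu, Msmb and Hba-a1 were past it on the higher side, and Tnni3 and Spink1 on the lower. Their part in the collagen differences was not tested.

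**Figure D5:**
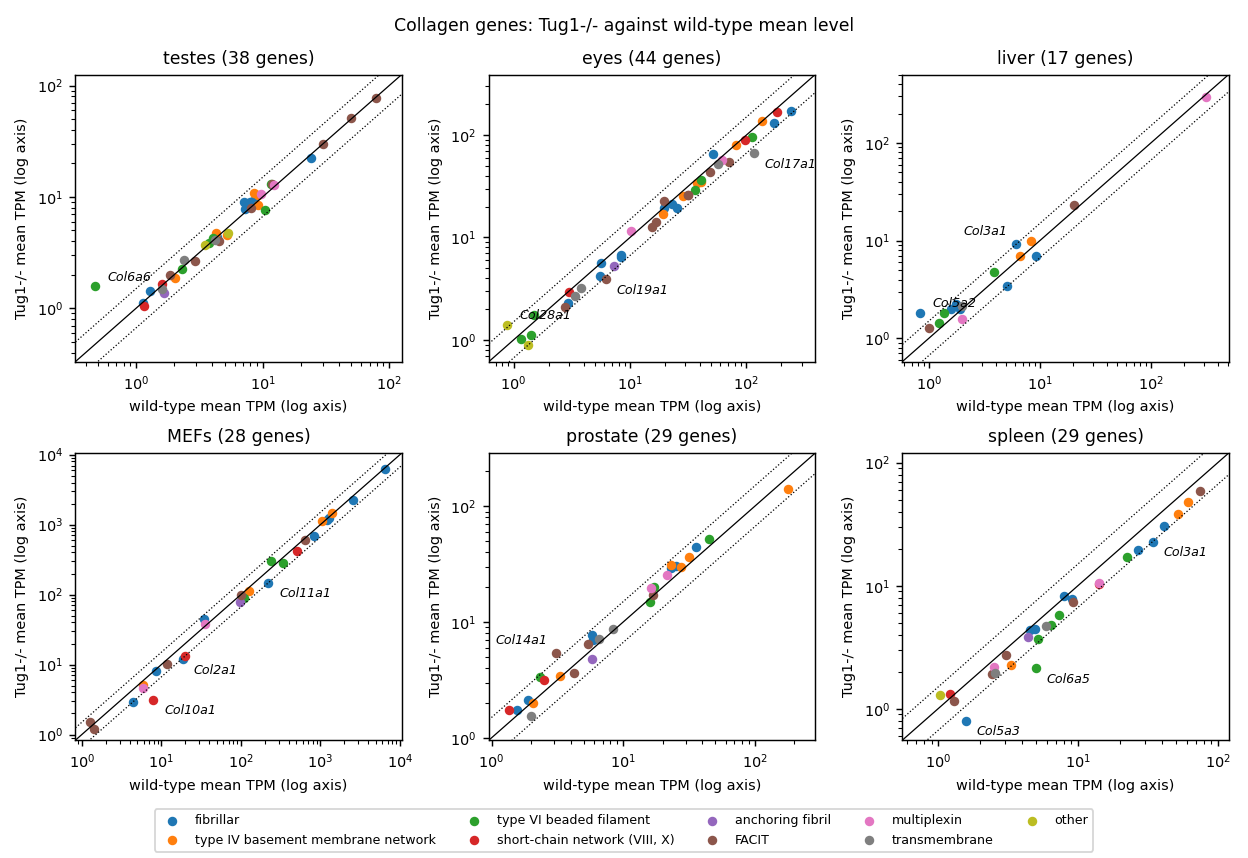
Tug1-/- mean TPM against wild-type mean TPM (log axes) for the collagen genes compared in 6 sources, coloured by class; the solid line is equality and the dotted lines are 1.5-fold, and genes past them are named. In spleen nearly all points lie under the line (26 of 29), in MEFs 22 of 28, and in testes Col6a6 stands apart.

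Brain and heart had no collagen gene past the limit. In brain 0 of 30 were past it, where 1.72% of all genes were higher and 3% lower, and 23 of 30 (76.7%) were lower, as were 60.2% of all genes, with a median of -0.12 against -0.02 for all genes. Krt12 was the 1 gene of the other lists past the limit in brain, lower in Tug1-/-. Smooth muscle and pericyte markers were lower in 5 of 6 (median -0.32, sums of 131 TPM against 159) and endothelial markers in 6 of 7 (median -0.22), and what part they had in the collagen values was not tested. Col8a1 was nearest among collagens, at 3.97 TPM against 5.91. Col1a1 was at 3.79 TPM against 5.00, Col18a1 at 7.71 against 9.61, Col4a1 at 15.7 against 17.1 and Col6a1 at 24.8 against 23.6. In heart 0 of 24 were past it, where 1.67% were higher and 1.82% lower. The heart collagens stayed within 0.22 of equality on the log2 scale, with a median of 0.06 against 0.10 for all genes.

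The heart values were Col1a1 at 35.1 TPM against 32.0 in the wild type, Col3a1 at 60.9 against 63.2, Col4a1 at 124 against 108.9, Col4a2 at 105 against 92.4, Col6a1 at 51.8 against 45.6, Col15a1 at 39.0 against 34.2 and Col18a1 at 7.53 against 8.80. Skeletal muscle markers in heart differed, 3 of 6 past the limit on the lower side, with Tnnt3 at 0.763 TPM against 31.5. In all 5 of the 6 were lower and 1 was higher, and their sum was higher in Tug1-/-, at 1425 TPM against 1329. B cell genes were lower there too, Cd79a at 5.91 TPM against 12.5. Ms4a1, of the same list, Actn3, Myh4 and the Sertoli list's Rhox5 were also past the limit on the lower side, and the macrophage gene Cd163 on the higher side. Macrophage markers were higher in 6 of 6 (median 0.36), where 75.3% of all genes were. Smooth muscle and pericyte markers were lower in 7 of 7 (median -0.13). What part these had in the collagen values was not tested.

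Chains that build 1 protein were compared by the ratio of their TPM values. Col4a1 and Col4a2, which share a start and assemble together, had a TPM ratio between 0.906 (brain) and 1.67 (eyes) in the wild type and between 0.845 and 1.73 in Tug1-/-. Their log2 ratios of Tug1-/- to wild type differed from each other by at most 0.18, in testes. Col1a1 and Col1a2 lie on different chromosomes (11 and 6), and theirs differed by at most 0.15, in eyes. Their TPM ratio in the wild type ran from 0.654 in spleen to 2.58 in MEFs. Col6a1 and Col6a2, neighbours on chromosome 10, had log2 ratios of Tug1-/- to wild type that differed by at most 0.19, in brain.

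The type V chains Col5a1 and Col5a2 were apart in liver, where their TPM ratio was 2.31 in the wild type and 1.10 in Tug1-/-. In MEFs it was 1.05 and 1.06, and in testes 6.26 and 8.01.

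Col4a3 and Col4a4, the kidney and lens chains that start 72 bases apart on chromosome 1, were both compared in testes, eyes, heart and prostate. They differed by at most 0.08 there. Col4a5 and Col4a6 start 1309 bases apart on the X chromosome, and in prostate their log2 ratios were 0.42 and -0.35, a gap of 0.77. The ratio of Col4a5 to Col4a6 in TPM was 0.128 there in the wild type and 0.219 in Tug1-/-, and 21.8 in MEFs of both genotypes. The strand of the read counting is not given in the sources used here, so reads from overlapping genes on opposite strands cannot be told apart. Of the 44 genes, 13 share exonic bases with another gene in GENCODE vM21. For those past the limit the overlap was small: 1.44% of Col3a1, 0.687% of Col6a6 and 0.575% of Col10a1.

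The enzymes that make collagen were past the limit in single members. Of 17 genes for hydroxylation and folding, none of those compared was past it in testes (14 compared), brain (17), eyes (17), MEFs (16) or spleen (15). In liver 2 of 11 were past it on the higher side, as were 2.97% of all genes: P4ha1, the catalytic chain of prolyl 4-hydroxylase, was at 13.1 TPM against 4.94, and Serpinh1, the collagen chaperone, at 13.4 against 8.62. P4ha1 was past the limit in heart as well, at 37.8 TPM against 21.6, along with P4ha2, at 18.6 against 11.7, and no heart collagen was. In prostate P4ha3 was lower, at 1.31 TPM against 2.19. The list median was 0.21 in heart, where 16 of 16 were higher in Tug1-/- and 75.3% of all genes were, and -0.05 in MEFs, where 14 of 16 were lower and 40.3% of all genes were. The list and all-gene medians were 0.13 and 0.03 in testes, 0.11 and 0.04 in prostate, 0.05 and 0.01 in liver, -0.05 and -0.02 in brain, -0.03 and -0.11 in eyes, and -0.03 and -0.11 in spleen. Whether this list differed from all genes was not tested.

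Enzymes that act outside the cell differed by list and source. Of the 5 lysyl oxidases, which crosslink fibrils, none of those compared was past the limit. All 5 were compared in eyes, heart, MEFs and prostate, 4 in spleen, 2 each in testes and brain, and 0 in liver. Lox was at 1666 TPM against 2040 in MEFs. Among genes that trim propeptides, Adamts14 was lower in spleen, at 4.24 TPM against 6.48, and Pcolce2 was higher in prostate, at 1.28 against 0.794. Pcolce2 reached the minimum only through its Tug1-/- mean. No compared gene of this list passed the limit in testes, brain, eyes, heart, liver or MEFs. The median of these genes was 0.25 in prostate, with 5 of 5 compared higher, 0.20 in liver, with 3 of 4 higher, and -0.22 in spleen, with 5 of 6 lower. Of all genes, 59.0% were higher in prostate, 52.7% were higher in liver and 70.4% were lower in spleen.

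Fibril partners, receptors and breakdown genes differed in single members. Among fibril-binding proteins, Sparc was higher in testes (331 TPM against 199.9), Lum in prostate, and Fmod, fibromodulin, lower in MEFs (13.6 against 22.2). Ddr1, a receptor kinase for collagen, was at 22.6 TPM against 9.99 in testes, and Gp6, the platelet collagen receptor, at 8.68 against 4.26 in spleen. Of genes for breakdown and its inhibition, Timp1 was at 18.3 TPM in Tug1-/- testes against 2.34 in the wild type and Mmp9 at 1.58 against 0.583. Mmp9 reached the minimum there only through its Tug1-/- mean. Mmp8, the neutrophil collagenase, was at 12.1 TPM against 6.08 in spleen, and Mmp9 was at 5.94 against 3.69 in prostate. The spleen lists that hold Mmp8 and Gp6 leaned the other way. Breakdown genes were lower there in 8 of 10 (median -0.24) and receptors in 7 of 9 (median -0.21), where 70.4% of all genes were.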

How the data were processed

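Polyadenylated RNA of 46 of the 52 samples was measured by paired-end sequencing; the 6 F1 hybrid samples were not analysed here, and the brain libraries lie outside the sample labels. The authors called bases with CASAVA 1.8.2, mapped reads to GRCm38 (mm10) with STAR and GENCODE vM16, assigned reads with 1 mapping to genes with featureCounts, and left out genes with fewer than 3 reads in each replicate. The deposited tables hold the authors' mean TPM of each group, and, outside testes, a mean normalized count per gene over both genotypes (DESeq2's base mean), a signal that was used only to state depth. The tables also hold the authors' own comparisons (fold changes, errors, statistics, p-values and significance calls), which were not used. There was no column of single samples, and 0 such columns were left unused.

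Groups follow the sample labels, and the tissue of each value is that named within the table. With Python 3.11.15, numpy 2.4.6 and pandas 2.3.3, log2((a + 0.1)/(b + 0.1)) was computed from the 2 mean TPM values of genes that averaged at least 1 TPM, and 1.5-fold in either direction was the limit. Counts and medians are given beside those over all genes compared. Compared genes with 1 mean under 1 TPM reached the minimum only through the other mean, as did Acta1 in testes and Alb in spleen. The steps were tested on simulated data. Exon overlaps and lengths came from GENCODE vM21, and promoter windows from RefSeq (GRCm38.p6), matched by symbol for 35 of 44 genes. Named are Tug1, all collagen genes past the limit, the 3 highest in each source, a fixed set of type I, III, IV, VI, XV and XVIII chains, pairs with starts within 1 kb, and genes of the other lists past the limit, some of which are not reported here; Col27a1, Col8a1, Col23a1 and other members near the limit were added after their values were seen. The collagen genes and all lists were chosen with earlier results of these data known. Precision is limited by the lack of single-sample values, and depth in testes is unknown. Alternatives were another pseudocount or none, minimums of 0.1 and 5 TPM, ratios centred on all genes, TPM rescaled over nuclear protein-coding genes and a limit of 1.25-fold; centring on genes of like length was chosen after seeing the data.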

Additional observations from a re-analysis of the deposited data

How the results depend on the processing

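No paired analysis was possible because only group means were at hand, and for the same reason no sample could be left out in turn. A count was taken as moved when it changed by more than 1.5-fold and a median when it shifted by more than 0.1; 52 of the counts and 64 of the medians stayed within that, 28 and 6 did not, and the sign of a median changed in heart alone, under 3 settings. With a pseudocount of 1 TPM, 1 gene was past the limit in eyes (Col17a1), 1 in liver (Col5a2) and 1 in spleen (Col6a5). At a minimum of 0.1 TPM there were 1 in brain, 6 in MEFs, 5 in prostate and 1 for rescue over wild type (Col6a6), and the liver median was 0.089. At a minimum of 5 TPM there were 0 in testes and in prostate, 1 in liver and 1 in spleen (Col3a1 in both), as fewer genes were compared. With ratios centred on all genes, 1 gene was past it in liver, 5 in MEFs (Col24a1 and Col8a2 added) and 1 for rescue over wild type (Col23a1, lower), and the medians were -0.12 in eyes, -0.042 in heart and -0.24 in spleen. Centring on genes of like length gave the same counts, with medians of -0.067 in heart and -0.23 in spleen. With TPM rescaled there were 1 in liver and 5 in MEFs. With the lower fold limit, spleen had 18, eyes 16, liver, MEFs and prostate 8 each, either rescue comparison 6, and testes and brain 3 each. For other moved counts the cause was not tested. Replicate values were not at hand and the authors' errors were not used, so no difference was set against its error at any depth.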

Other observations

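Collagen genes under the minimum of 1 TPM had some ratios past the same limit. In spleen Col4a4, a basement membrane chain, was at 0.365 TPM in Tug1-/- and 0.779 in the wild type (log2 ratio -0.92). In MEFs the cartilage gene Col9a2 was at 0.0989 TPM against 0.247, Col25a1 at 0.717 against 1.18, and Col6a4 higher at 0.337 against 0.160. In prostate Col28a1 was at 0.721 TPM against 0.322, and Col9a2 at 0.250 against 0.0678. Col28a1 was above its wild-type mean in brain, eyes, heart, prostate and spleen, and below it in MEFs and in testes, where it was highest (4.75 TPM against 5.29).

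Some collagens had 1 leading source. Col22a1, a collagen of tissue junctions, was at 78.4 TPM in wild-type testes and at most 2.76 TPM in the other wild-type sources. Col10a1 reached 1 TPM in MEFs and eyes and in no other source, and Col25a1, at 22.1 TPM in brain, was at 3.36 in eyes, 1.59 in testes, 1.18 in MEFs and 0.0135 in spleen.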
